A study of Mus musculus with 2 samples.

Results

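Genes for proteins of the acrosome and the sperm head were examined in the testis of wild type mice and of mice that lack UBR2. The group held 10 genes, named for their products and not for their values: Acr, Acrbp, Acrv1, Spaca1, Dkkl1, Zpbp, Zpbp2, Izumo1, Crisp2 and Insl6. Every probe set assigned to 1 of these symbols and to no other gene was taken, which gave 8 probe sets for 7 of the 10 genes, among 22690 probe sets and 12393 singly named genes in all. No probe set was assigned to Spaca1, Zpbp2 or Izumo1, and these 3 have no value here. The genes that were read lie on separate autosomes, Acr on chromosome 15, Acrbp on 6, Acrv1 on 9, Dkkl1 on 7, Zpbp on 11, Crisp2 on 17 and Insl6 on 19.

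Both groups were testes of 17 day old mice on a mixed 129SV and C57BL background, one group of wild type genotype and the other UBR2-/-. For each genotype the labels name 2 testes, taken from different littermates, and there was 1 Affymetrix mouse 430A 2.0 array (n = 1). The sources used here do not say if the RNA of both testes was pooled. With a single array per genotype there is no replicate check and no test, and each difference describes these arrays only. UBR2 is a ubiquitin ligase of the N-degron pathway, which recognises proteins by the residue at their N-terminus, and male mice without it are known to be infertile, with loss of germ cells in meiosis.

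The acrosome is a large secretory vesicle that forms from the Golgi apparatus and caps the sperm nucleus. Its enzymes and matrix proteins are released when the sperm meets the zona pellucida, the coat of the egg, and proteins that the release exposes on the sperm head then take part in binding and fusion with the egg. Some acrosomal genes are transcribed in pachytene spermatocytes, well before the vesicle is built, and others only in round spermatids. At the age studied the first wave of spermatogenesis has reached pachytene, and round spermatids are at most few.

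All 6 members with a measurable signal were lower on the UBR2-/- array. Zpbp, Dkkl1 and Crisp2, above the floor on both arrays, were 3.17-fold, 6.91-fold and 14.9-fold lower, and for Acr, Acrbp and Insl6 only a least fold is known. A member was counted as lower at 2-fold or more. Of the 10 members 6 were lower, 0 were higher, 1 (Acrv1) lay below the floor on both arrays and 3 were not read. Among all 8091 genes compared on these arrays, 285 or 3.52% were at least 2-fold lower and 28 or 0.346% at least 2-fold higher. Low signals carry little information, so a floor was set at each array's 40th percentile, a signal of 24.4 for wild type and 24.7 for UBR2-/-, and lower signals were raised to it. A gene was compared when the mean of its 2 signals reached the mean floor. Of the 6 compared members 3 also reached that level by their UBR2-/- signal alone, and the other 3, Acr, Acrbp and Insl6, passed only through wild type and so had to differ. In a whole testis, fewer cells of a type and less RNA per cell cannot be told apart.

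**Figure D1:**
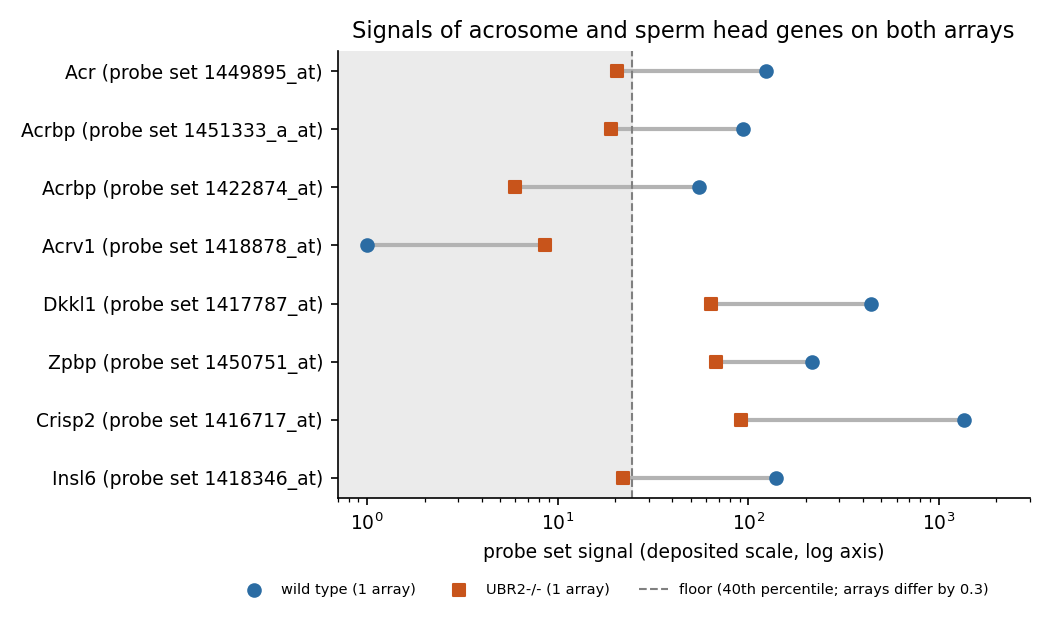
Signal of each member's probe sets on the wild type array (blue circles) and the UBR2-/- array (orange squares), on a log axis, with the floor as a dashed line and the range below it in grey. In 7 of the 8 probe sets the UBR2-/- signal lies to the left of wild type, and Acrv1 lies below the floor on both arrays.

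The promoters of the members were read first, as a description of their letters. RefSeq promoter windows on build GRCm38.p6, from 250 bases before to 50 after the start of transcription, were available for 8 of the 10 members, 4 of them measured as lower. Of those, Dkkl1 and Acrbp held a letter match to a site of a regulator of late spermatocytes or spermatids, and Crisp2 is shown because it had the largest measured fold. The lines give the 250 bases before the start, 5′ to 3′ on the gene's strand. Capitals mark TATAAA (or its reverse complement TTTATA) in Crisp2, the RFX core site GTTGCC (or GGCAAC) in Dkkl1 and Acrbp, and the cAMP response element core TGACGT in Acrbp. The stretches lie at chr17:40794147-40794396 (minus strand) for Crisp2, chr7:45211884-45212133 (minus strand) for Dkkl1 and chr6:125049677-125049926 (plus strand) for Acrbp.
Crisp2: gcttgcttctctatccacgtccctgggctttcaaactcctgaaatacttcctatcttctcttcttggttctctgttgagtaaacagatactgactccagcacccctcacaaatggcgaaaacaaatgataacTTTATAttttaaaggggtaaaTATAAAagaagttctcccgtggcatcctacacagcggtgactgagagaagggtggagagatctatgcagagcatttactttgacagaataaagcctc
Dkkl1: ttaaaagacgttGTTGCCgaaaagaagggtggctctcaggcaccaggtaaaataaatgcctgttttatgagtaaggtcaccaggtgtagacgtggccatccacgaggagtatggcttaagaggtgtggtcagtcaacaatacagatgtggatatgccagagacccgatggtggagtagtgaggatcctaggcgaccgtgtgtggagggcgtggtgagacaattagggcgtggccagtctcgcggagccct
Acrbp: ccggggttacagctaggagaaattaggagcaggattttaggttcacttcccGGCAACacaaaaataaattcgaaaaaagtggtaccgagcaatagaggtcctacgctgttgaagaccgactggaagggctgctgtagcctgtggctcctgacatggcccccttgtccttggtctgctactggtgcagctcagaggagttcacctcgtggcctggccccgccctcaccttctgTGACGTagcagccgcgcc

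In Acrbp the cAMP response element core, the site of CREM and CREB factors, lay from -18 to -13 relative to the start. The GTTGCC letters, only part of the site bound by RFX2 and its relatives, lay from -199 to -194 on the opposite strand. In Dkkl1 the RFX core site lay from -238 to -233. The TATA letters of Crisp2 lay from -118 to -113 and from -97 to -92, farther from the annotated start than a TATA box usually lies. Searched on both strands over the whole 300-base windows, with TGACGT and its reverse complement ACGTCA, the cAMP response element core was in 2 of 8 member promoters (Acrbp and Izumo1), against 7.64% of 27025 promoters and 12.5% of the promoters of 6654 compared genes. The RFX core site was in 2 of 8, against 12.7% and 12.6%. CAACTG or CAGTTG, the letters of a MYB site, were in 1 of 8 (Zpbp2) against 13.6% and 9.89%, and the TATA box in 1 of 8 (Crisp2) against 14.2% and 6.66%. The GC box, GGGCGG or CCGCCC, was in 5 of 8, against 35.9% of all promoters and 67.3% of those of compared genes. TGACGT can overlap its own reverse complement, and in Izumo1 it matched on both strands, from -96 to -91 and from -94 to -89. A match is a description of the letters, and none of the 5 motifs was found in all 4 measured members with a promoter. The GC content of these 4 also differed, from 46.7% in Crisp2, 50% in Zpbp and 53% in Dkkl1 to 57.3% in Acrbp, with a median of 52.7% over all promoters and 61.3% over those of compared genes, below which all 4 lay.

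Acr encodes acrosin, the trypsin-like protease stored in the acrosome as an inactive precursor. Its signal was 123.8 in wild type and 20.5 in UBR2-/-. The wild type signal stood 5.07 times over the floor and the UBR2-/- signal lay just below it, so Acr was at least 5.01-fold lower. Acrbp encodes the protein that binds the acrosin precursor and helps to pack it into the forming vesicle. Its brighter probe set had 93.8 on wild type and 19.1 on UBR2-/-, which makes it at least 3.80-fold lower. The dimmer probe set had 55.3 and 6, at least 2.24-fold lower. Both probe sets were thus above the floor in wild type and below it in UBR2-/-, and their difference as bounds follows from how far the wild type signal stood over the floor. A further probe set is assigned to Acrbp together with Ing4, a chromatin reader gene, and was outside the selection. It had 135.4 and 141.2, a log2 ratio of 0.06, and which transcripts it reads was not tested. The probe set for Ing4 alone lay far below the floor, at 1.3 and 0.7.

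Dkkl1 was measured above the floor on both arrays. Dkkl1, also called soggy, is a secreted glycoprotein of the acrosome related to the Dickkopf proteins. Its signal was 442.9 on wild type and 64.1 on UBR2-/-, or 6.91-fold lower (log2 ratio -2.79), with 14.5% of the wild type signal left. Acrv1, the acrosomal antigen SP-10, known from round spermatids, had 1 on wild type and 8.6 on UBR2-/-. Both values lie deep in the lower part of their arrays, no fold is given, and neither array shows a measurable level of this gene. Spaca1, a protein of the inner acrosomal membrane, was not read.

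Zpbp, a zona pellucida binding protein of the acrosomal matrix, had the smallest fold of the 3 members that were above the floor on both arrays. Its signal was 215.4 on wild type and 67.9 on UBR2-/-, 3.17-fold lower (log2 ratio -1.67), with 31.5% of the wild type signal left. Its paralogue Zpbp2 and the fusion protein Izumo1, which binds the egg receptor Juno, were not read.

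Crisp2, a cysteine-rich secretory protein of the CAP family found in the acrosome and in the outer dense fibres of the tail, had the largest fold of the 3 members measured above the floor on both arrays. Its signal was 1357.6 on wild type and 91.1 on UBR2-/-, 14.9-fold lower (log2 ratio -3.90), with 6.71% of the wild type signal left. Insl6, a peptide of the relaxin family made in male germ cells, had 140.5 on wild type and 22.1 on UBR2-/-, so it was at least 5.69-fold lower. Its UBR2-/- signal lay at 0.895 of the floor, which places Insl6 with Acr as a gene that was well measured in wild type and not measurable in UBR2-/-.

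The size of the difference varied among the members. Of the 3 genes above the floor on both arrays, the log2 ratio of Crisp2 lay 1.11 below that of Dkkl1, and that of Dkkl1 lay 1.12 below that of Zpbp. The SD of these gaps, taken from how far probe sets of one gene disagree, was 0.22 and 0.30, so each gap was larger than that spread. This SD was scaled from a median absolute deviation, so genes whose probe sets disagree widely count little in it. Among lowered genes, the 2 probe sets of Ldhc had -3.19 and -3.11, and those of Cetn1 -3.51 and -2.21. The SD for 1 probe set was 0.24 among the dimmest such pairs, 0.18 in the middle and 0.13 in the brightest, over 2894 genes with several probe sets. It leaves out any error between arrays or animals. Acr, Acrbp and Insl6 have bounds only and hold no place in this order. With bounds taken as values, the median log2 ratio of the 6 compared members was -2.42, which is set by the bounds of Acr and Insl6, against 0.07 for all genes, whose quartiles were -0.17 and 0.28. On the same terms 111 genes, or 1.37% of those compared, lay as low as Zpbp or lower, the 6 members among them.

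**Figure D2:**
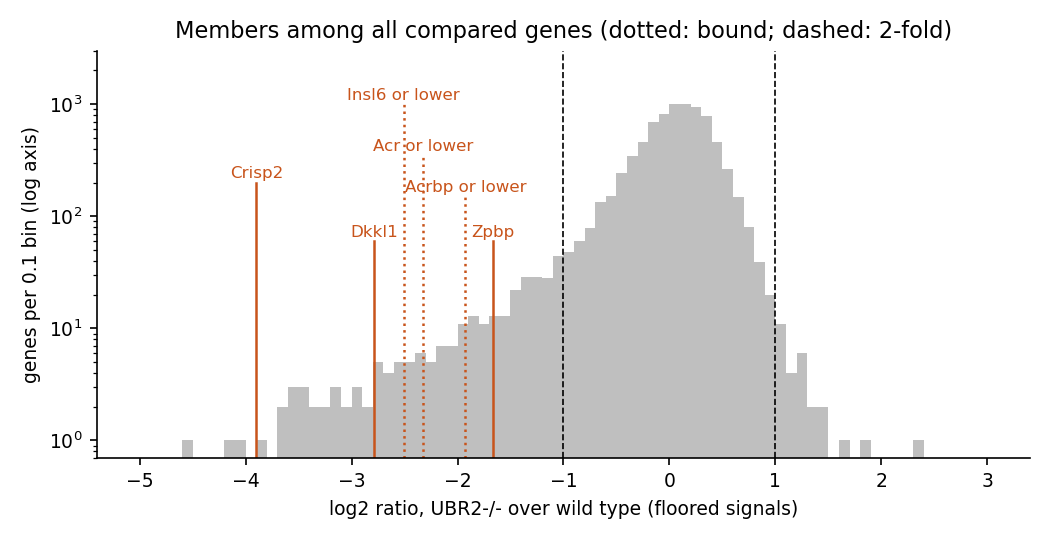
Number of genes (log axis) by log2 ratio of UBR2-/- over wild type for all 8091 compared genes, with the 6 compared members as orange lines, solid where both signals were above the floor and dotted where the value is a bound. All 6 members lie below the 2-fold line at -1, with Crisp2 at -3.90 and Zpbp at -1.67.

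The compared genes nearest to the members on the chromosome were set beside them, a comparison added after the data had been seen. For the 7 members that were read, the nearest compared protein-coding gene on either side gave 14 neighbours. They lay from 1 to 18 genes away (Pus3, from Acrv1, which has no ratio itself). Of these 14 genes 13 lay within 2-fold, 1 was lower and 0 were higher, with a median log2 ratio of 0.10. Among all genes compared 3.52% were lower and 0.346% higher. Jak2, a kinase gene directly beside Insl6, had signals of 127.9 and 143.6 (log2 ratio 0.17). Tead2, a transcription factor gene directly beside Dkkl1, was dim at 25.7 and 28.1 (0.13), and Shank3 beside Acr was dim at 37 on both arrays. Chd4, a chromatin remodeller 2 genes from Acrbp, had -0.06. The neighbour that was lower was Pgk2, the germ cell form of a glycolytic enzyme, 10 genes from Crisp2, with signals of 107.4 and 4.1 and a bound of at least 4.35-fold. Next in size was Fignl1, a recombination factor 4 genes from Zpbp, at -0.76 with 954.7 and 563.

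**Figure D3:**
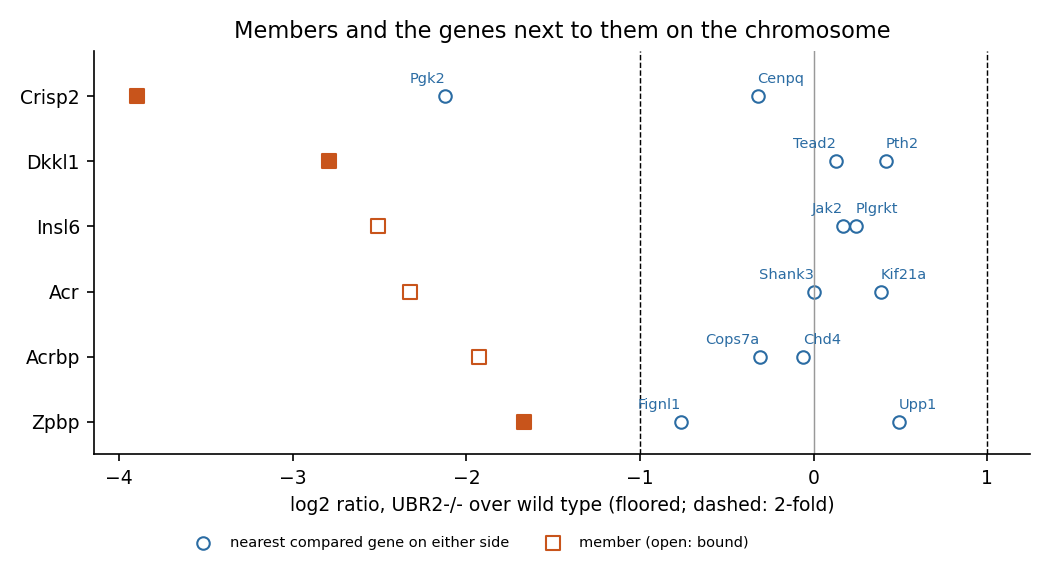
Log2 ratio of UBR2-/- over wild type for each compared member (orange squares, open where it is a bound) and for the nearest compared gene on either side of it (blue circles). Apart from Pgk2 near Crisp2 at -2.12, a bound, the neighbours shown lie within 2-fold, between the dashed lines.

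Other genes for the contents of the acrosome and for contact with the egg coat were lower in part. Of 28 listed genes 15 were read and 8 compared, of which 5 were lower by the 2-fold rule, 3 did not pass it and 0 were higher. Among all genes compared 3.52% were lower. The median log2 ratio of the list was -1.08, against 0.07 for all genes. Tex101, the brightest gene of the list, had 2621.8 and 2670.1 (log2 ratio 0.03), and Man2b2 had -0.44. Arsa, arylsulfatase A, read 162.2 on wild type and 57 on UBR2-/- and was 2.85-fold lower. Spa17, a sperm surface and fibrous sheath protein, had 703.5 and 300.6 and was 2.34-fold lower. The convertase gene Pcsk4, which processes sperm proteins, had 58.9 and 27.3 and was 2.16-fold lower. Prss21, a serine protease of sperm, had 44.1 and 5, a bound of at least 1.79-fold that leaves its side of the 2-fold threshold unknown, and Spag1, 2.23-fold lower, is better known for the assembly of ciliary dynein than for the acrosome. The other 7 genes read, among them Spam1, the hyaluronidase of the sperm head, with 0.2 and 0.4, and Zp3r, a matrix protein, with 0.5 and 4, were below the floor on both arrays like Acrv1.

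Among the genes listed for building the vesicle, those compared were closer to wild type. Of 30 listed 20 were read, and Actl7a (6.8 and 4.6) and Spag4 (18.5 and 16.9) were below the floor rule. Spata16 and Dpy19l2 were among those not read. Which cells of the testis the signals of the compared genes came from was not tested. In the list for acrosome formation and vesicle traffic 0 of 18 compared genes passed 2-fold in either direction. Among all genes compared 3.52% were lower and 0.346% higher, so a count of 0 says little in a list of this size. Of the 18 genes 16 had a lower ratio than the median gene, and the list's median log2 ratio was -0.17. Gopc, a Golgi protein needed for vesicle fusion into the acrosome, had 182.2 and 120.4 (log2 ratio -0.60). Its partner Pick1 had 161.3 and 125.9 (-0.36), and Agfg1, which docks these vesicles, had 519.6 and 359.6 (-0.53, with 5 probe sets from -0.95 to -0.02). Rab3a, a small GTPase of secretion, was dim and on the other side, with 27.6 and 45.1 (0.71). Of the genes for sperm-egg fusion Cd9 alone was compared, a membrane protein of many cell types better known for its part on the egg, with 137 and 191.3 (0.48). Among 4 compared genes of the sperm head skeleton, Actl7b, an actin-like protein of germ cells, had 98.4 and 23.1 and was at least 3.98-fold lower. It passed the floor rule only through wild type and so had to be lower. Spata6, Cntrob and Kifc1 had log2 ratios of -0.28, -0.13 and 0.19. For sperm chromatin, the protamine gene Prm1 was dim and higher, at 35.3 and 94 (1.41, with 3 probe sets from 0.35 to 1.55), and Brdt, a bromodomain protein of spermatocytes, was lower, at 330.9 and 155.2 (-1.09 in the brighter and -0.32 in the other probe set). The other 7 chromatin genes read, Prm2, Tnp1 and Tnp2 among them, were below the floor rule.

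**Figure D4:**
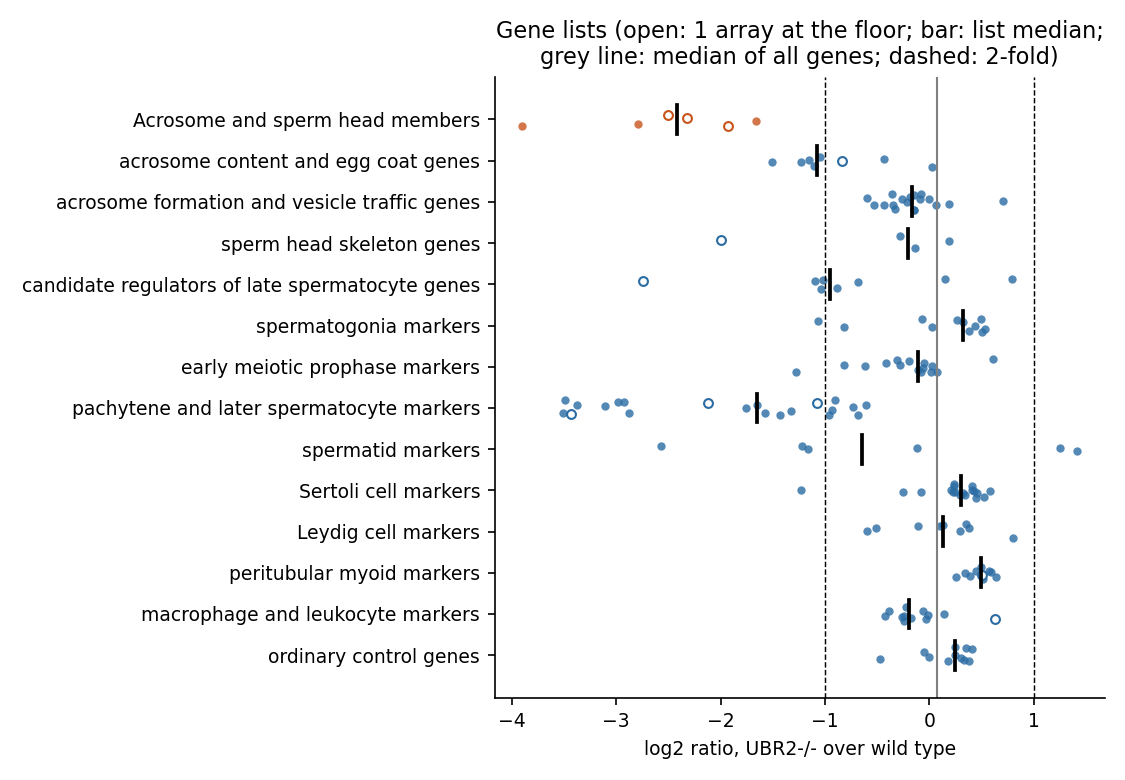
Log2 ratio of UBR2-/- over wild type for each compared gene of the members (orange) and of 13 lists with at least 4 compared genes (blue), open where 1 array is at the floor. Black bars are list medians with bounds taken as values: -2.42 for the members, -1.65 for pachytene and later spermatocyte genes, -1.08 for acrosome content genes and -0.17 for acrosome formation genes.

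Relatives of the members were mostly too dim for a comparison. In the CAP and CRISP family 2 of 7 genes read were compared: Glipr1l2, with 465.2 and 166.5, was 2.79-fold lower, and Pi16 was dim and nearly equal at 30.2 and 30.4. Crisp3 was below the floor, at 2.9 and 0.8. In the insulin and relaxin family Igf1 and Igf2, growth factors of somatic cells, had log2 ratios of 0.26 and 0.32, and of the Dickkopf proteins and their receptors Dkk3 and Lrp6 had 0.09 and 0.07. Igf1, Igf2, Dkk3, Lrp6 and Kifc1 turned below 0 when the arrays were scaled on the spike-in controls, whose median log2 ratio was 0.35. This scaling moved the median of all genes from 0.07 to -0.28, and the folds given here are on the deposited scale.

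Genes of transcription and RNA factors that act late in meiosis or in spermatids were lower in part. Of 8 compared factors 4 passed the 2-fold rule as lower, 4 lay within it and 0 were higher, with a median log2 ratio of -0.95. The number lower ran from 1 to 6 over 10 settings, counting the one reported. Papolb, a testis poly(A) polymerase, had 165.6 and 21.8 and was at least 6.70-fold lower, but it passed the floor rule only through wild type. Crem, a cAMP-responsive factor, had 100.9 and 47.1 (log2 ratio -1.10, with 3 probe sets up to -0.47). Tcfl5, a bHLH factor of spermatocytes, had 1709.9 and 834.7 (-1.03), and Rfx2 had 122.8 and 60.7 (-1.02). Mybl1, the A-MYB factor of pachytene spermatocytes, had 89.2 and 48.4, a log2 ratio of -0.88. Taf7l went the other way, with 857.4 and 1478.3 (0.79), and Brwd1 had 0.15 in the brightest of 4 probe sets.

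The marker lists of testis cells moved with the members in part. Of 21 compared genes of pachytene and later spermatocytes 15 were at least 2-fold lower and 0 higher, against 3.52% lower among all genes compared. Of those lower, Pgk2, Ccna1 and Adam3 passed the floor rule only through wild type and so had to be lower. The list had a median of -1.65 and a summed signal of 14144.5 on wild type and 3923.6 on UBR2-/-. Ldhc, the lactate dehydrogenase of germ cells, was 8.62-fold lower, the sperm gene Adam3 at least 10.8-fold, and Hspa2, a chaperone of late spermatocytes, 1.87-fold lower. The centrin gene Cetn1 was 11.4-fold lower by its brighter probe set and the chaperonin gene Cct6b 11.2-fold, with UBR2-/- signals of 31.5 and 24.9 that lay little over the floor. Of 15 genes of early meiotic prophase 1 was lower, Spo11 (-1.27), or 6.67% against 3.52% among all genes. The summed signals were 12105.7 and 10871 and the median was -0.11, and 14 of the 15 had a lower ratio than the median gene. Psmc3ip and Mlh3 had -0.82 and -0.61. Sycp1 had 2533.4 and 2342.1, and Sycp3, of the chromosome axis, had 2904.1 and 2954.7. The summed signals of Sertoli cell markers were 21077.6 and 26301.4, and those of myoid cell markers 3988.2 and 5610, with medians of 0.31 and 0.50. Those of ordinary control genes were 17983.1 and 21667.4, with a median of 0.25. Medians were 0.12 for Leydig cell markers, -0.20 for macrophage and leukocyte markers and 0.32 for spermatogonia markers. Under spike-in scaling the Sertoli and myoid medians were -0.05 and 0.14, against -0.28 for all genes. The Sertoli gene farthest from 0 was Amh, dim at 59.7 and 25.5 (log2 ratio -1.23), while Wt1 had 0.41. Of 19 spermatid genes read 13 were below the floor rule, and of the 6 compared 3 were lower, Tekt1 (-2.57), Catsper2 (-1.22) and Tekt2 (-1.16), Prm1 and Tsga8 were higher, and Odf2 had -0.12 in the brightest of 3 probe sets that reached down to -2.25. The part of cell composition in the members' values was not tested.

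The targeted gene Ubr2 had 57.2 on wild type and 14.3 on UBR2-/-, at least 2.32-fold lower, from 1 probe set, and the sources used here do not place it relative to the deletion. Median signals of the arrays were 48.7 and 48.75. The ratio of 3' to 5' probe sets, a sign of RNA quality, was 1.75 and 1.64 for Actb and 0.796 and 0.822 for Gapdh, in the order wild type and UBR2-/-.

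The members' ratios were recomputed under other settings. All 6 stayed at least 2-fold lower under each setting in which they were compared. For Acr, Acrbp and Insl6 the floor rule set the direction, except with the floor at the 25th percentile. Crisp2 ran from -4.25 to -3.76, Dkkl1 from -3.14 to -2.31 and Zpbp from -2.02 to -1.27 over 10 settings, counting the one reported. Insl6 ran from -2.86 to -2.23, Acr from -2.68 to -2.13 and Acrbp from -2.30 to -1.16 over 9 settings each. These values are bounds except with the floor at the 25th percentile, which the UBR2-/- signals of their brightest probe sets exceeded, and with the pseudocount, which uses no floor. With the floor at the 60th percentile these 3 did not reach the floor rule, and the members counted as lower went from 6 to 3. At that floor Dkkl1 and Zpbp also passed only through wild type and so had to be lower. Their UBR2-/- signals lay at percentiles 54.4 and 55.4 of the array, so the values there, -2.31 and -1.27, are bounds. Crisp2 alone stayed above that floor on both arrays.

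**Figure D5:**
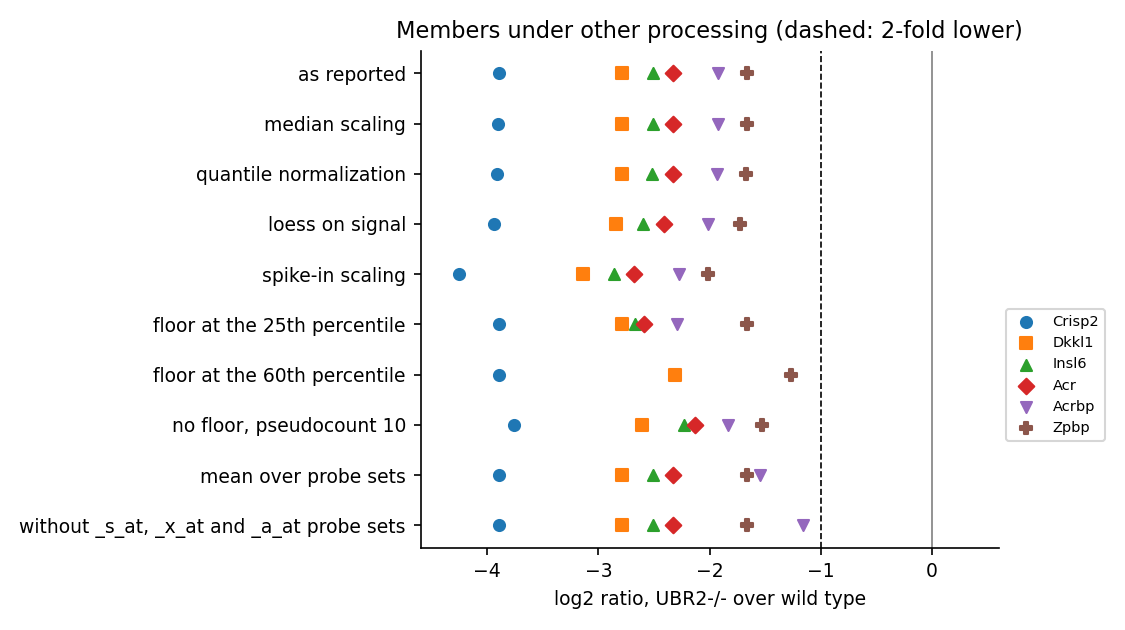
Log2 ratio of UBR2-/- over wild type for the 6 compared members (1 marker each) as reported and under 9 other settings. Every marker lies left of the dashed 2-fold line at -1. With the floor at the 60th percentile Acr, Acrbp and Insl6 have no marker, and the markers of Dkkl1 and Zpbp are bounds.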

How the data were processed

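Testis RNA was measured on 1 array per genotype. Each deposited value is the intensity (signal) of a probe set on a linear scale. The submitters' processing notes name MAS5, with no version or settings, and detection calls were not used here. Both arrays had a 2% trimmed mean of 150.04, and this scaling was kept. Of 22626 non-control probe sets 20380 had 1 gene symbol in the platform annotation, and 20351 of these were renamed through the Entrez identifier with the GRCm38.p6 gene table, which also gave gene order. No genome build is named for the array.

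Signals below the 40th percentile of each array were raised to it, each gene was read by its brightest probe set, and log2 ratios are UBR2-/- over wild type. Where 1 signal lay below the floor, "at least N-fold" is the brighter signal over the other array's floor. With 1 array per group there is no p-value, and the number of arrays limits the precision. The calculation was tested on simulated data. The members and lists were chosen with earlier results of these data known. The rule for naming genes of a list took its first 2 compared genes, the 3 farthest from 0, and every gene of lists with at most 6 compared; for cell type and control lists not all of these are printed. The rule's genes closest to the members' median are left out, since bounds set that median. Exceptions are genes below the floor, Crisp3, Taf7l, Brwd1, Ccna1, Tex101, Man2b2 and the neighbours, which were chosen after their values were seen.

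Alternatives were median, quantile, loess (span 0.3) and spike-in scaling (42 probe sets), floors at the 25th and 60th percentiles, a pseudocount of 10 with no floor, averaging a gene's probe sets, omitting less specific probe sets (_s_at, _x_at, _a_at), and thresholds of 1.5-fold and 3-fold. Python 3.11.15, numpy 2.4.6, pandas 2.3.3 and statsmodels 0.14.6 were used.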

Additional observations from a re-analysis of the deposited data

How the results depend on the processing

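The members counted as lower stayed at 6 under all alternatives but the floor at the 60th percentile, which gave 3, with Dkkl1 and Zpbp as bounds. That floor left fewer genes to compare, with 152 genes lower and 8 higher and 2 acrosome content genes lower. Spike-in scaling gave 528 genes lower and 7 higher and a median of -2.77 over the compared members, in place of 285, 28 and -2.42. The floor at the 25th percentile compared more genes, gave 132 genes higher and took that median to -2.63. A pseudocount took it to -2.18 and gave 17 genes higher, and loess also gave 17. At 1.5-fold 624 genes were lower and 344 higher, and 1 acrosome formation gene was lower. At 3-fold 121 were lower and 3 higher, with the members at 6 and the acrosome content genes, 5 at 2-fold, at 0. Causes beyond the number of genes compared and the thresholds themselves were not tested. In the single-member ratios, 0 reversed their sign. Signals near the floor limit Acr, Acrbp and Insl6 to bounds, and Acrv1 has no measurable level. No paired analysis was possible because each genotype has 1 array.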

Other observations

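Prm1 and Tsga8, genes known from spermatids, were higher on the UBR2-/- array while the members were lower. Tsga8 had signals of 31.7 and 75.3, a log2 ratio of 1.25, and Prm1 had 1.41. Both were dim, and each was read just above the floor on the wild type array. Prm1 stayed at least 2-fold higher in 8 of 8 settings that compared it, and Tsga8 in 7 of 8. Neither was compared when less specific probe sets were omitted or with the floor at the 60th percentile. The 3 probe sets of Prm1 ran from 0.35 to 1.55. Tekt1, a protein of the sperm tail in the same list, went the other way, with 204 and 34.4 (log2 ratio -2.57).

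The RFX core site seen in the Dkkl1 and Acrbp promoters was in 25.5% of the promoters of 231 genes at least 2-fold lower, against 12.6% of those of 6654 compared genes. For the MYB site the shares were 16.5% and 9.89%, and for the cAMP response element core 8.66% and 12.5%. For the GC box they were 51.9% and 67.3%, and for the TATA box 7.36% and 6.66%. These are shares of letter matches, and the promoters differ in base composition. The lower genes were called on these same arrays and include Dkkl1 and Acrbp, so their share is not separate from the members. Binding to any of these promoters was not tested.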
